A study of Mus musculus with 16 samples.

Results

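Ribosome footprints were compared gene by gene between unedited Hepa1-6 cells (WT) and clone #3 of the same line lacking exon 5 of Eef1d (KO3), as a measure of protein synthesis per gene. Hepa1-6 is a mouse hepatoma line. Clone #3 came from Hepa1-6 cells transfected with plasmids pS2 and pS4, each coding for Cas9, a puromycin resistance and a guide RNA beside the exon. It was picked as a single cell by limiting dilution and carries a homozygous in-frame deletion of exon 5. The WT cells are Hepa1-6 cells without the deletion, and 2 further exon 5 KO clones, KO1 and KO2, were made with plasmids pS1 and pS4. Each line gave 2 Ribo-seq libraries and 2 RNA-seq libraries, the latter from the same lysates. For each gene the transcript with the most reads over all 16 libraries was kept, which gave 22392 genes of 67139 transcripts. Of these, 14341 had at least 1 footprint in the WT or KO3 libraries and 10398 had enough for a test. Footprints counted on these transcripts numbered 3583764 and 2370913 in the WT libraries and 4168959 and 3287102 in the KO3 libraries. The study calls the 2 libraries of a line biological replicates. KO3 is 1 clone, so every p-value below weighs the difference between lines against the spread between 2 libraries of each, not against the spread between clones. An exact permutation test of 2 libraries against 2 cannot give a two-sided p below 0.333, so p-values come from the fit across all genes.

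During elongation, the GTPase EEF1A brings aminoacyl-tRNA to the ribosome and leaves it bound to GDP. The EEF1B complex recharges EEF1A with GTP: its subunits EEF1B2 and EEF1D carry the exchange activity, EEF1G holds the complex together, and valyl-tRNA synthetase (Vars) is attached to it. Splicing gives EEF1D proteins with and without the segment coded by exon 5, and this segment binds KTN1, a membrane protein that tethers the complex to the endoplasmic reticulum. A ribosome protects a short stretch of mRNA from nuclease, so counting such footprints over a coding sequence measures how many ribosomes were on it, which depends on the amount of mRNA and on how it was translated.

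The deleted exon is shown because it defines the clone. It is a coding exon of 72 bases, or 24 codons, at chr15:75900691-75900762 on the minus strand (GRCm38); it separates 2 annotated Eef1d transcripts whose coding sequences differ by these codons, and it is written here in capitals between 20 bases of each flanking intron in lower case.
Eef1d exon 5: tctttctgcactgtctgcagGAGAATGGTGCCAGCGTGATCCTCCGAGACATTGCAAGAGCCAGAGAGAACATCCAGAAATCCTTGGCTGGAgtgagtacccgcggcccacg

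The transcript with the exon had 1111 and 727 footprints in WT against 987 and 638 on the transcript without it, a ratio of 113% and 114%. In KO3 it had 747 and 491 against 755 and 504, a ratio of 98.9% and 97.4%. The 2 transcripts share all other codons and therefore most of their reads. Both WT libraries had more footprints on the transcript with the exon, and both KO3 libraries had slightly fewer. The ratio was 97.4% and 96.0% in KO1 and 96.3% and 96.2% in KO2.

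Footprint levels differed between KO3 and WT across a large part of the genome. Of 10398 genes tested with edgeR's quasi-likelihood test, 3183, or 30.6%, passed an adjusted p of 0.05. KO3 was higher for 1548 genes (14.9%) and lower for 1635 (15.7%), and the median log2 fold change of all tested genes was 0.0041. Most changes were modest. The median size among called genes was 0.52 on the log2 scale. Among the 7256 genes with a mean of at least 50 footprints per library, 2514 were called, 86 rose and 104 fell by more than 2-fold, and 8 rose and 30 fell by more than 4-fold. In 3168 of the 3183 called genes the 2 KO3 libraries lay on one side of both WT libraries; such non-overlap was common, at 63.4% of all tested genes. The correlation of log2 CPM over those 7256 genes was 0.991 between the WT libraries, 0.992 between the KO3 libraries and 0.950 to 0.956 between lines. The number of calls rested on the tool: DESeq2 called 488 genes higher and 603 lower, and 616 and 805 genes exceeded a fold change of 1.2 by edgeR's test against that threshold.

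**Figure D1:**
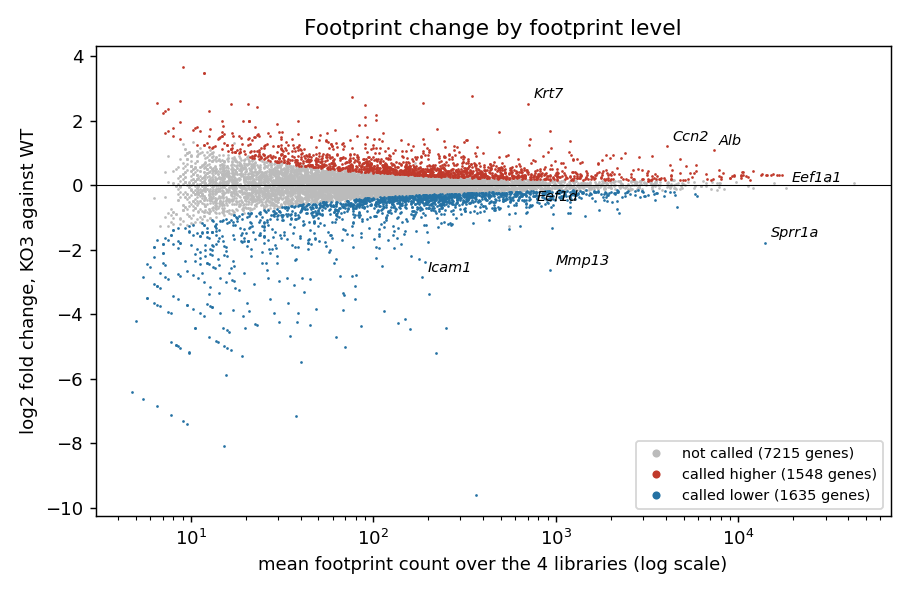
Log2 fold change in footprints, KO3 against WT, against the mean footprint count over the 4 libraries on a log axis, 1 point per tested gene. Called genes are coloured, 1548 higher and 1635 lower, and they lie nearer to 0 the more footprints a gene has. Genes at the lower left with a few counts in WT and none in KO3 have fold changes that depend on the fit's prior count.

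More genes were called at higher footprint levels, except between the lowest bins. When tested genes were split into 5 bins of equal size, from a mean of 4.75 to 32.75 footprints per library in the lowest to 303.25 and more in the highest, 21.9%, 19.9%, 27.3%, 36.1% and 47.8% were called. Lower calls made up 14.3%, 10.3%, 12.7%, 19.1% and 22.1% in the same order. The median standard error went from 0.36 in the lowest bin to 0.077 in the highest. The counts for gene lists given below can be read against these shares, since abundant lists such as ribosomal proteins fall in the upper bins, and they cover only the members with enough footprints for a test. By coding length, the bin of the shortest genes, up to 231 counted codons, had a median log2 fold change of 0.070 with 19.1% higher and 13% lower, and the bin of the longest, from 821 codons, had -0.056 with 13.4% higher and 20.2% lower.

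The 12 largest rises were taken among called genes with a mean of at least 50 footprints and no overlap between KO3 and WT libraries. They ranged from 2.76 to 1.72 on the log2 scale. Values are CPM, footprint counts scaled to a common library total, in replicate order, followed in parentheses by the log2 fold change with its standard error. Tnfrsf11b, the decoy receptor for the osteoclast factor RANKL, lies at chr15:54250619-54278484 (GRCm38) and stood at 25.7 and 24.9 in WT and 164 and 170.1 in KO3 (log2 fold change 2.76 ± 0.11, adjusted p = 2.1e-24). S100a4, a small calcium-binding protein of motile cells, stood at 6.14 and 4.64 in WT and 35 and 38 in KO3 (2.75 ± 0.22, adjusted p = 4.4e-14). Klf2, a zinc finger transcription factor, stood at 15.3 and 16 in WT and 83.5 and 94.6 in KO3 (2.54 ± 0.14, adjusted p = 5.5e-19). The lack of overlap between libraries follows from how these genes were picked. Krt7 (chr15:101411043-101430313), a keratin of simple epithelia such as bile ducts, was the most abundant of the 12 at 59.7 and 57.4 in WT and 348 and 312 in KO3 (2.53 ± 0.09, adjusted p = 4.7e-27). Cubn, which codes for the endocytic receptor cubilin, stood at 7.25 and 8.44 in WT and 42.5 and 42.3 in KO3 (2.49 ± 0.19). The transcription factor gene Atoh8 stood at 10.0 and 11.4 in WT and 48.9 and 44.1 in KO3 (2.18 ± 0.18). Ephb6, an Eph receptor without kinase activity, Add3, an adducin of the membrane skeleton, Antxr1, a receptor that binds collagen, and Rhob, a small GTPase, rose by 2.13, 2.02, 1.86 and 1.76. Fam110c and Fam89a completed the 12 at 1.88 and 1.72. The next gene in this order was Lrp1, an endocytic receptor for lipoproteins and proteases, at 1.69.

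The falls reached further than the rises. Rhox5 (chrX:37804842-37808876), a homeobox gene of the X-linked Rhox cluster that is known from the reproductive tract and from tumour lines, had 906 and 554 footprints in WT (253 and 234 CPM) and 1 in each KO3 library. Its level over both libraries was 914 times lower in KO3 (95% counting interval 253 to 7555, exact binomial, counting error only). Rhox2d, of the same cluster, had 33 and 28 footprints in WT and none in KO3, at least 25.5-fold lower when 3 counts over both libraries are taken as the floor; it was the only gene with at least 20 counts in both libraries of one line and none in the other, and it was singled out after its values were seen. Enpp2, which codes for the secreted lysophospholipase autotaxin, stood at 79.2 and 95.7 in WT and 3.6 and 5.17 in KO3 (-4.28 ± 0.19, adjusted p = 1.0e-22), with both KO3 libraries an order of magnitude below both WT libraries. Cdkn2a, which codes for the cell cycle inhibitors p16INK4a and ARF, stood at 46.6 and 50.6 in WT and 4.32 and 3.65 in KO3 (-3.53 ± 0.21, adjusted p = 4.0e-18). The log2 fold change was -5.01 for Plac8, -4.70 for Tff2, a secreted trefoil peptide, -4.47 for Pnma5, -4.36 for Clca3b, -3.90 for Aebp1, a secreted protein of connective tissue, and -3.86 for Gfpt2, an enzyme of the hexosamine pathway. These 6 genes had 108 to 332 footprints per WT library and 3 to 21 per KO3 library. Gimd1 came next after Cdkn2a, at -3.42.

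**Figure D2:**
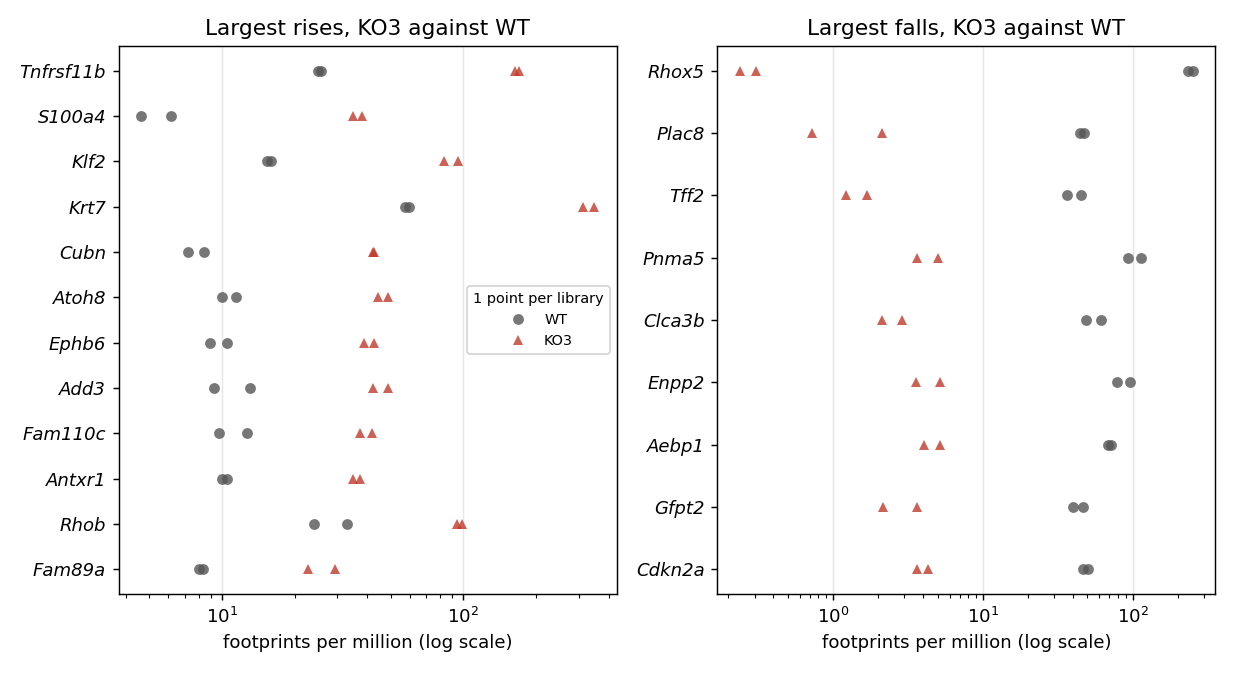
Footprints in CPM on a log axis for the 12 named rises and 9 of the largest falls, 1 point per library (grey circles WT, red triangles KO3). The genes were picked with no overlap between KO3 and WT libraries, so the gap in each row follows from that rule. Tnfrsf11b stood at 25.7 and 24.9 in WT against 164 and 170.1 in KO3. Rhox5 stood at 253 and 234 in WT against 0.24 and 0.30 in KO3.

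A few abundant genes moved the largest amounts of footprints. Sprr1a, a small proline-rich protein of the epithelial cornified envelope, had more footprints per codon than any other tested gene in WT, at a level of 7064 and 6743 in WT and 2091 and 1806 in KO3 (-1.78 ± 0.07, adjusted p = 2.3e-25). It was the largest loss in CPM of all tested genes. Ctsl, a lysosomal cysteine protease, stood at 1793 and 1714 in WT and 1083 and 1059 in KO3 (-0.67 ± 0.06). Hspd1, the mitochondrial chaperonin, stood at 2007 and 2048 in WT and 1616 and 1506 in KO3 (-0.34 ± 0.06). Mmp13, a collagenase, stood at 545 and 483 in WT and 81.3 and 80.3 in KO3 (-2.64 ± 0.08, adjusted p = 1.7e-29), and Ctnnb1, which codes for beta-catenin, at 881 and 901 in WT and 462 and 491 in KO3 (-0.86 ± 0.06). The largest gain in CPM was Alb, the serum albumin gene (chr5:90460897-90476602), at 1388 and 1346 in WT and 2732 and 2934 in KO3 (1.09 ± 0.06, adjusted p = 4.9e-19). The other 4 of the 5 largest gains were the histone H3 genes Hist2h3c1, Hist1h3d, Hist1h3h and Hist1h3i at log2 fold changes of 0.44, 0.33, 0.33 and 0.35. These copies are nearly identical in sequence, so their reads may be shared or split between them and their single values are uncertain.

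Promoters are shown for the 2 genes of steepest fall among the abundant ones, Sprr1a and Mmp13, because each holds TGANTCA. This pattern includes TGACTCA and TGAGTCA, the letters that AP-1 transcription factors bind. The choice was made after their values were seen. The sequences are RefSeq windows of 250 bases before to 50 bases after the start (GRCm38.p6), read on the gene's strand, with the motif in capitals. Sprr1a lies on the minus strand at chr3:92485832-92486131 with the motif starting 146 and 116 bases before the start. Mmp13 lies on the plus strand at chr9:7272264-7272563 with the motif starting 35 bases before it.
Sprr1a promoter: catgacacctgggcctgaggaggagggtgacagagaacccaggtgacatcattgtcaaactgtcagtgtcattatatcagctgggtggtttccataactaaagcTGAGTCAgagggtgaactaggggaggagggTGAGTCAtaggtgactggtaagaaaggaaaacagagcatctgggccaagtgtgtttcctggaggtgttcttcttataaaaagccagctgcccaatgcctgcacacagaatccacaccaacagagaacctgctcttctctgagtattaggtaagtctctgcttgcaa
Mmp13 promoter: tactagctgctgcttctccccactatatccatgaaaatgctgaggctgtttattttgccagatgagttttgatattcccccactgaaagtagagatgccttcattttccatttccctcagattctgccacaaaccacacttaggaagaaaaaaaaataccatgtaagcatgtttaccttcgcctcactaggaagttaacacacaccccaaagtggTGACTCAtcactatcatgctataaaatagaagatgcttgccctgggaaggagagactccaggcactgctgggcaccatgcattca

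The motif reads the same on both strands apart from its free base. It occurred in 2565 of 32851 promoter windows of that length, or 7.81%. Any base was allowed at N, so the counts given here are not counts of AP-1 sites alone. Of the 17 genes named for the largest falls in fold or in level, 12 had a window and 4 of these held it, namely Sprr1a, Mmp13, Clca3b and Gfpt2. Of the 17 named for the largest rises, 11 had a window and 1, Fam110c, held it. Some of these genes have more than 1 window, Add3 with 3 and Cdkn2a with 2 among them. Counts of genes can therefore not be set against the share of windows. A match is a description of the letters in this window and no evidence of binding.

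Eef1d itself and the core EEF1B subunits had fewer footprints in KO3, although the call for Eef1b2 did not hold under several alternatives. On the Eef1d transcript with the most reads, a long form with 543 counted codons that does not contain exon 5 in the annotation, Eef1d stood at 279.6 and 273 in WT and 182 and 157 in KO3 (-0.66 ± 0.07, adjusted p = 9.2e-10). A deletion of the exon therefore removes no codon from this count. The short transcript without exon 5, of 248 codons, had nearly as many footprints (987 and 638 in WT). The value is thus not particular to the long form. With the transcript chosen by Ribo-seq counts alone, Eef1d stood at -0.86 (edgeR adjusted p = 2.1e-13). Eef1b2 stood at 815 and 772 in WT and 684 and 659.9 in KO3 (-0.20 ± 0.06, adjusted p = 0.0069) and Eef1g at 1503 and 1517 in WT and 1236 and 1171 in KO3 (-0.29 ± 0.06, adjusted p = 1.5e-04). The fall of Eef1b2 did not pass with DESeq2 (adjusted p = 0.10), nor without WT replicate 1 (0.19) or KO3 replicate 2 (0.066), nor with the median of its chromosome removed (-0.08, adjusted p = 0.38), a setting in which Eef1g stood at -0.17 (adjusted p = 0.029). Vars stood at 369 and 380.4 in WT and 365 and 322 in KO3 (-0.08 ± 0.06, adjusted p = 0.38), which did not pass. Eef1a1 was the most abundant elongation factor at 5684 and 5619 in WT and 5233 and 5207 in KO3 (-0.07 ± 0.06, adjusted p = 0.39), also without a call. Eef2, the translocase of elongation, rose slightly (3318 and 3225 in WT and 3686 and 3512 in KO3, 0.18 ± 0.06, adjusted p = 0.022), though not without WT replicate 2 (adjusted p = 0.17) or KO3 replicate 1 (0.14), nor with its chromosome's median removed (0.12, adjusted p = 0.17). Of 20 tested genes of the elongation machinery, 2 rose and 4 fell, at a median of 0.03. That was 30.0% called, against 38.6% of all genes at their levels. Dph1, an enzyme that modifies EEF2, was the other fall (-0.46), and Gtpbp1 the other rise (0.29). Of 5 endoplasmic reticulum proteins listed here as possible anchors, the study names KTN1 and RRBP1 as partners of EEF1D. Ktn1 fell (93.5 and 100.4 in WT and 69.6 and 66.9 in KO3, -0.46 ± 0.10, adjusted p = 2.7e-04, and 0.06 with DESeq2). Vapb rose (94.9 and 107 in WT and 144 and 127 in KO3, 0.48 ± 0.09), and Rrbp1 (0.01), Vapa (0.09) and Ckap4 (0.02) were not called.

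The ribosome and its cofactors moved in both directions. Of 48 large subunit proteins 8 rose and 5 fell (median -0.02), and of 34 small subunit genes 6 rose and 2 fell (median 0.02); both shares called, 27.1% and 23.5%, were below the 30.6% of all genes and the 47.8% of the highest bin, which holds all of them. Rpl24 stood at 827 and 812 in WT and 1039.6 and 1044 in KO3 (0.39 ± 0.06) and Rps14 at 1309 and 1163 in WT and 1587 and 1575 in KO3 (0.39 ± 0.06), while Rps6 stood at 773 and 778 in WT and 537 and 534 in KO3 (-0.49 ± 0.06) and Rpl32 at 870.0 and 960.4 in WT and 701 and 751 in KO3 (-0.29 ± 0.06). Processed copies of ribosomal protein genes could share these reads. The large subunit genes together held 4.01% and 3.94% in WT and 3.87% and 3.81% in KO3 of all footprints. Among 59 ribosome biogenesis genes, 22 fell and 2 rose (median -0.16), or 40.7% called against 43.8% of all genes at their levels. Polr1a, the largest subunit of RNA polymerase I, stood at 189 and 189 in WT and 116 and 104 in KO3 (-0.73 ± 0.08), the rRNA methyltransferase gene Nop2 at 355 and 364 in WT and 227 and 212 in KO3 (-0.67 ± 0.07), and Tsr1, a maturation factor of the small subunit, at 306 and 324 in WT and 202 and 184 in KO3 (-0.66 ± 0.07). The biogenesis list took 1.37% and 1.39% in WT and 1.25% and 1.21% in KO3 of footprints. Among 21 cytosolic aminoacyl-tRNA synthetases and their scaffolds, 9 rose and none fell (median 0.12, and 0.07 with chromosome medians removed), led by Wars (117 and 102 in WT and 174 and 148 in KO3, 0.59 ± 0.09), Lars (0.48) and Nars (0.47). That was 42.9% called, against 47.8% of all genes at their levels. Of 40 initiation factors, 9 rose and 6 fell (median 0.08), or 37.5% called against 44.5% of all genes at their levels. Eif5, the GTPase-activating factor of start codon choice, rose most (0.60 ± 0.08), and Eif4e, which binds the mRNA cap, fell most (-0.45 ± 0.08).

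Genes of liver identity split, with Alb and Afp higher and more of the other plasma protein and apolipoprotein genes lower than higher. Of 70 secreted plasma protein genes listed, 22 had enough footprints for a test, and 21 had none in any of the 4 libraries. Of the 22, 7 rose and 10 fell, at a median of -0.47. This median was -0.26 with at least 10 counts in every library and -0.29 with libraries thinned to the smallest total. In KO1 and KO2 the median of these genes was -0.66 and -0.62 against the same WT libraries. The list's share of all footprints was 0.642% and 0.609% in WT and 0.812% and 0.826% in KO3. Alb and Afp, the albumins of adult and fetal liver, were its most abundant rises; Afp stood at 1429 and 1310.5 in WT and 2048 and 2066 in KO3 (0.62 ± 0.06, adjusted p = 2.2e-11). Itih2, a stabiliser of hyaluronan, stood at 457 and 476 in WT and 909.8 and 914 in KO3 (1.01 ± 0.06) and complement factor Cfb at 19.3 and 19.4 in WT and 36 and 33.5 in KO3 (0.89 ± 0.16). In the other direction, the iron carrier Trf stood at 607 and 570.2 in WT and 302 and 291 in KO3 (-0.95 ± 0.06), the heme carrier Hpx at 35.7 and 44.7 in WT and 10.1 and 10.0 in KO3 (-1.93 ± 0.18), complement factor Cfi at 30.1 and 29.1 in WT and 8.4 and 5.48 in KO3 (-2.02 ± 0.21) and the lipase inhibitor Angptl4 at 51.1 and 47.7 in WT and 22.5 and 21 in KO3 (-1.14 ± 0.15). Of 11 tested apolipoprotein and lipoprotein assembly genes 7 fell and 2 rose (median -0.44, and -0.82 with no count filter or -0.81 with DESeq2). Their median was -0.62 in KO1 and 0.07 in KO2. Apob, the scaffold of very low density lipoprotein, stood at 106 and 105 in WT and 46.5 and 46.2 in KO3 (-1.14 ± 0.10) and Mttp, which loads it with lipid, at 27.6 and 22.4 in WT and 11.3 and 11.3 in KO3 (-1.14 ± 0.20). Apoe and Lrp1 were the rises, Apoe at 2779 and 2850.0 in WT and 3049.7 and 3579 in KO3 (0.28 ± 0.06). Among 17 liver transcription factors, 3 rose, including Cebpa (0.65 ± 0.16), and 6 fell, including Tbx3 (-1.50 ± 0.14) and Hnf4a (-0.34 ± 0.09).

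Markers of hepatocytes were present in part. Of 20 hepatocyte markers, 9 had enough footprints and 3 had none in any library, and Ttr, Apoa1 and Cps1 had at most 6 counts per library. Alb, Afp and the simple epithelial keratins Krt8 and Krt18 each had at least 2351 footprints in every library. In a culture, fewer cells expressing a marker and less of its RNA per cell cannot be told apart. Of the 9 tested hepatocyte markers 3 rose and 4 fell, Apob, Trf, Fgb and Hnf4a, at a median of -0.14 that was -0.03 without WT replicate 2, -0.04 without KO3 replicate 1, -0.33 with no count filter, -0.36 with DESeq2 and -0.08 with chromosome medians removed. Of 10 bile duct markers 7 were tested, 3 rose, 2 fell and 2 were not called, at a median of 0.47 that was 0.25 without WT replicate 1. Krt7, Sox9 (0.51) and Spp1 (0.52), the most abundant of them at 681 and 707 in WT and 918 and 1017 in KO3, rose, and Cd24a (-0.45) was among the falls. The summed share of this list was 0.11% and 0.108% in WT and 0.163% and 0.169% in KO3, with Krt19, a defining keratin of bile ducts, at 0 in WT and at 6 and 1 counts in KO3. Of 12 fibroblast and stellate cell markers, 6 had no footprint in any library, Pdgfrb and Col1a2 among them, and 4 were tested. Of these Dcn, Acta2 (0.19) and Col3a1 (2 and 1 counts in WT and 31 and 13 in KO3) rose and Pdgfra, a growth factor receptor, fell (-2.72); Dcn made up most of their share of 0.244% and 0.25% in WT and 0.278% and 0.292% in KO3 and stood at 2182 and 2224 in WT and 2498 and 2630.0 in KO3 (0.26 ± 0.06). Macrophage markers summed to 0.00393% and 0.00312% in WT and 0.00345% and 0.00335% in KO3, with Cd68 lower (-1.24) and Cd14 not called (0.32), and endothelial markers, with Cdh5 and Kdr at 0, had no tested member. Myoblast markers summed to 0.00834% and 0.00831% in WT and 0.00967% and 0.00821% in KO3, with Tnnt2, a troponin, higher (0.51), Actc1, a sarcomeric actin, not called and the most abundant, and Myod1 and Myog at 0. Both groups are cultures of the Hepa1-6 line and KO3 grew from a single cell, so these markers describe levels in that line. Any part of other cell types was not tested.

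Extracellular matrix genes were more often higher than lower. Of 53 listed, 35 were tested, 18 rose and 8 fell, or 74.3% called against 39.4% of all genes at their levels. Their median was 0.26, and 0.17 with no count filter or 0.08 with DESeq2. Their share of all footprints was 1.01% and 1.03% in WT and 1.29% and 1.3% in KO3, with no overlap between lines. Ccn2, a matricellular protein, stood at 737 and 688 in WT and 1635 and 1594 in KO3 (1.22 ± 0.06, adjusted p = 7.1e-21), the protease inhibitor Timp3 at 38.2 and 41.3 in WT and 105 and 93.1 in KO3 (1.37 ± 0.11) and the protease Mmp3 at 17.3 and 13.5 in WT and 45.3 and 36.2 in KO3 (1.42 ± 0.17). The basement membrane collagens Col4a1 (1.14 ± 0.07) and Col4a2 (1.02 ± 0.09) rose as well; these neighbouring genes were picked after their values were seen. Timp1 stood at 78.4 and 76.8 in WT and 49.9 and 42.6 in KO3 (-0.70 ± 0.11), the protease inhibitor Serpine2 at 25.9 and 16.9 in WT and 9.59 and 9.43 in KO3 (-1.18 ± 0.22), and P4ha2, which hydroxylates collagen, at 59.7 and 51 in WT and 30.5 and 22.5 in KO3 (-1.02 ± 0.14). Adhesion and junction genes were evenly split, 10 higher and 10 lower of 30 (median -0.07, and 0.13 without WT replicate 1 or 0.0068 without KO3 replicate 1). The immunoglobulin adhesion receptors Icam1 (100.5 and 114 in WT and 15.6 and 12.5 in KO3, -2.86 ± 0.14, adjusted p = 2.0e-21) and Vcam1 (51.6 and 59 in WT and 12.2 and 15.8 in KO3, -1.94 ± 0.16), which bind leukocyte integrins, and the tight junction gene Cldn3 (65.9 and 65.8 in WT and 16.3 and 17 in KO3, -1.94 ± 0.14) were the largest falls among members with a mean of at least 50 footprints. The desmosome genes Dsc2 (1.27 ± 0.13) and Dsp (0.90 ± 0.07) and the hemidesmosome integrin Itgb4 (70.0 and 59 in WT and 145 and 148 in KO3, 1.2 ± 0.09) were the largest rises. Of 41 actin cytoskeleton genes 11 rose and 9 fell (median 0.05). Ezr, which links actin to the membrane, stood at 231 and 258 in WT and 453 and 450.2 in KO3 (0.93 ± 0.06), and Capg, an actin-capping protein, at 48.8 and 41.8 in WT and 6.0 and 7.0 in KO3 (-2.79 ± 0.20). Of 19 tubulin and intermediate filament genes 7 rose and none fell (median 0.12, and 0.06 without KO3 replicate 1), among them the lamins Lmna (0.45) and Lmnb1 (0.68). That was 36.8% called, against 46.0% of all genes at their levels.

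Histone genes had a median of 0.29: 27 of 38 rose and 1 fell. The list took 5.88% and 5.4% in WT and 6.61% and 7.17% in KO3 of all footprints. Among those without near-identical copies, the linker histone H1f0 stood at 240.0 and 210.1 in WT and 429.8 and 479 in KO3 (1.04 ± 0.07, adjusted p = 2.2e-16) and H2afx, the variant phosphorylated at DNA breaks, at 414 and 353 in WT and 668 and 629 in KO3 (0.79 ± 0.06). H3f3b, a replacement histone, stood at 983 and 966 in WT and 1459.6 and 1504 in KO3 (0.64 ± 0.06), and H1fx was the single fall (-0.42 ± 0.11). Most canonical copies may share reads, so the count of members cannot be read as a count of independent changes. DNA replication and mitosis genes were 17 of 69 higher and 13 lower (median 0.05), or 43.5% called against 40.9% of all genes at their levels. With chromosome medians removed, 6 of them were higher and 8 lower (median -0.0057).

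**Figure D3:**
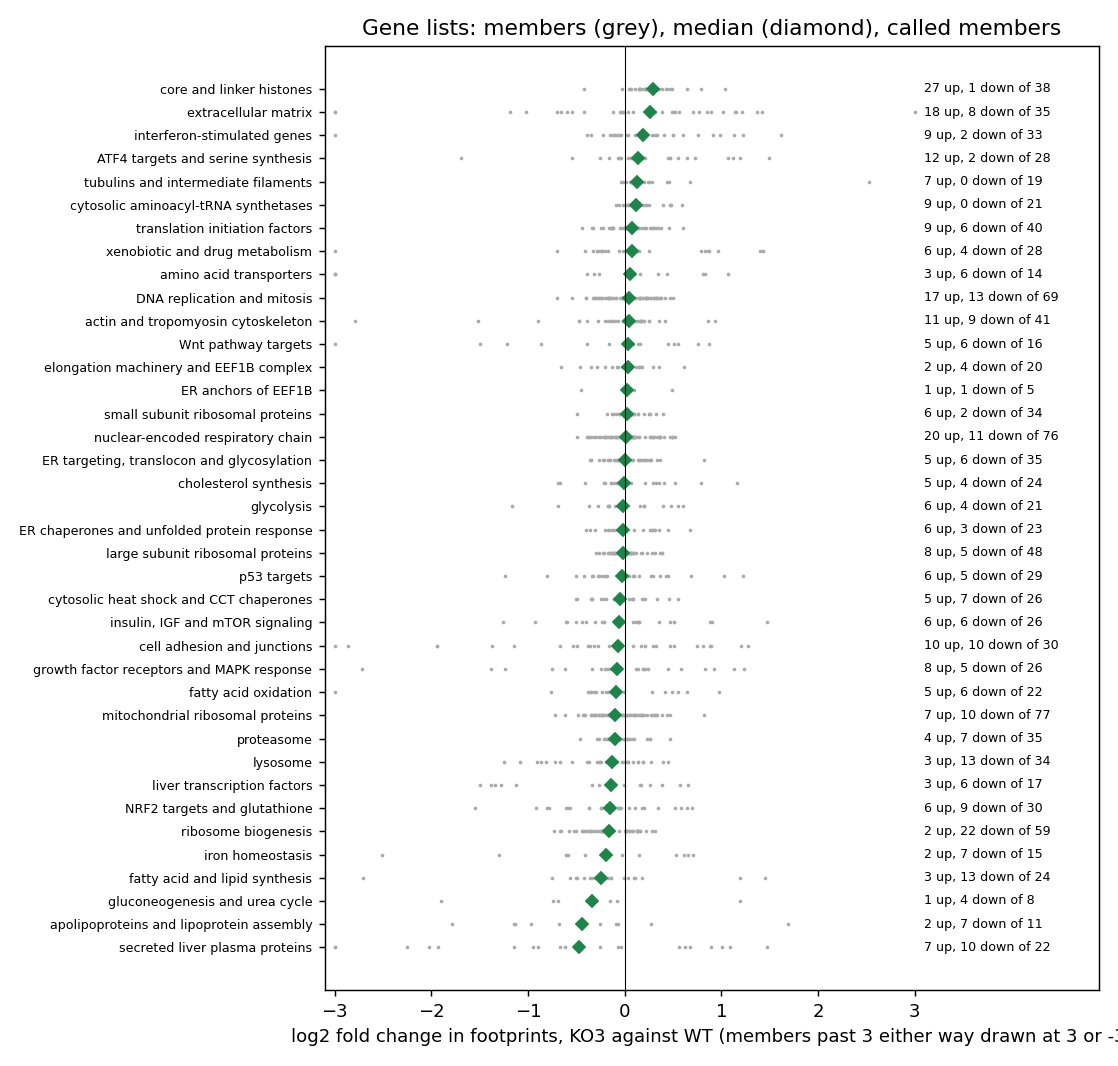
Log2 fold change in footprints, KO3 against WT, for the tested members of each gene list (grey points) with the list median (green diamond) and the number called higher (up) and lower (down). Histones, at a median of 0.29, and extracellular matrix, at 0.26, lie highest among the lists drawn. Secreted plasma proteins, at -0.47, and apolipoproteins, at -0.44, lie lowest. The order at both ends turns under some alternatives. Cell type marker lists are not drawn.

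Of 28 ATF4 target and serine synthesis genes, 12 rose and 2 fell (median 0.14). Trib3, a pseudokinase induced by ATF4, stood at 15.9 and 11 in WT and 40.3 and 35.6 in KO3 (1.49 ± 0.18), the transcription factor gene Atf5 at 27.9 and 26.1 in WT and 51.8 and 59.9 in KO3 (1.07 ± 0.14) and the proline synthesis gene Pycr1 at 14.2 and 6.75 in WT and 23.3 and 27.1 in KO3 (1.19 ± 0.22), whereas Gdf15 stood at 41.6 and 44.3 in WT and 27.6 and 29.5 in KO3 (-0.55 ± 0.14). Phgdh, the first enzyme of serine synthesis and the member with the most footprints per codon, rose slightly (0.17 ± 0.06, adjusted p = 0.023). Endoplasmic reticulum chaperones were 6 of 23 higher and 3 lower; the chaperone Hspa5 stood at 1105 and 1094 in WT and 959 and 951 in KO3 (-0.16 ± 0.06, adjusted p = 0.027) and the stress sensor Ern1 at 72.5 and 74.7 in WT and 113 and 117 in KO3 (0.68 ± 0.09). Genes of targeting to and entry into that compartment were 5 of 35 higher and 6 lower (median 0.01), with the channel subunits Sec61a1 (-0.34) and Sec61b (-0.35) lower and the signal peptidase subunit Sec11c higher (0.82). Interferon-stimulated genes were 9 of 33 higher and 2 lower (median 0.19, and 0.30 with DESeq2), led by the nuclease gene Isg20 (7.25 and 8.86 in WT and 23.5 and 23.7 in KO3, 1.61 ± 0.22). NRF2 targets were 6 of 30 higher and 9 lower (median -0.15), p53 targets 6 of 29 higher and 5 lower (median -0.02), and Trp53 itself was not called (-0.05). Growth factor and MAPK genes were 8 of 26 higher and 5 lower; the receptor genes Met (-0.76 ± 0.08) and Fgfr4 (-1.38 ± 0.18) fell, and Areg, an EGF receptor ligand, rose (55 and 49.8 in WT and 95 and 101 in KO3, 0.93 ± 0.10). Insulin and IGF pathway genes were 6 of 26 higher and 6 lower, with the IGF carrier Igfbp3 at 751 and 617 in WT and 1247 and 1258 in KO3 (0.90 ± 0.07). Wnt pathway targets were 5 of 16 higher and 6 lower; Ctnnb1 and the nuclear partner Tcf7 (-1.21 ± 0.10) fell and Lect2 rose (0.87 ± 0.11).

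In metabolism, lipid synthesis and lysosomal genes leaned lower. Of 24 fatty acid and lipid synthesis genes 13 fell and 3 rose (median -0.24, and -0.15 with chromosome medians removed). The desaturase Scd2, with the most footprints per codon, stood at 1179 and 1201 in WT and 912 and 1036 in KO3 (-0.25 ± 0.06), and the elongase Elovl6 at 47.2 and 49.3 in WT and 30.5 and 24.3 in KO3 (-0.76 ± 0.14), while the acyl-CoA synthetase Acsl1 ran the other way at 107 and 120.2 in WT and 289 and 311 in KO3 (1.45 ± 0.08, adjusted p = 8.8e-20). Cholesterol synthesis was 5 of 24 higher and 4 lower (median -0.01) and fatty acid oxidation 5 of 22 higher and 6 lower (median -0.09, and -0.18 without KO3 replicate 1 or -0.14 without WT replicate 2). Of 34 lysosomal genes 13 fell and 3 rose (median -0.14), and their share of footprints was 0.755% and 0.759% in WT and 0.621% and 0.651% in KO3. Besides Ctsl, the protease Ctsb stood at 280.4 and 269.5 in WT and 142 and 163 in KO3 (-0.82 ± 0.07), the sialidase Neu1 at 44.9 and 45.1 in WT and 18.9 and 30.4 in KO3 (-0.86 ± 0.16) and the cholesterol exporter Npc1 at 64.7 and 70.0 in WT and 37.2 and 31.6 in KO3 (-0.91 ± 0.13), and Ctsz was the strongest rise (0.45). Glycolysis was 6 of 21 higher and 4 lower (median -0.02), with the hexokinase Hk2 at 151 and 154 in WT and 66.9 and 65.4 in KO3 (-1.16 ± 0.09). Of 8 tested gluconeogenesis and urea cycle genes Ass1, argininosuccinate synthase, rose (49.4 and 52.3 in WT and 113 and 113 in KO3, 1.2 ± 0.10) and 4 fell (median -0.34, and -0.19 without WT replicate 2). Drug metabolism was 6 of 28 higher and 4 lower, with the retinal dehydrogenase Aldh1a1 at 990.0 and 1049.8 in WT and 1756 and 1758 in KO3 (0.83 ± 0.06). Iron homeostasis was 2 of 15 higher and 7 lower (median -0.19, and -0.09 without WT replicate 1 or -0.12 without KO3 replicate 2), and amino acid transport 3 of 14 higher and 6 lower. The respiratory chain was 20 of 76 higher and 11 lower, or 40.8% called, at a median of 0.01; 74 of its genes lay in the 2 upper footprint bins, and 45.0% of all tested genes at its members' levels were called. Mitochondrial ribosomal proteins were 7 of 77 higher and 10 lower, or 22.1% called against 35.3% of all genes at their levels, at a median of -0.10 that was -0.06 without KO3 replicate 2 or WT replicate 1 and -0.0065 with each chromosome's median removed. Cytosolic chaperones were 5 of 26 higher and 7 lower (median -0.05) and the proteasome 4 of 35 higher and 7 lower (median -0.10). Of the 22 lists with a median within 0.1 of 0, 12 turned sign when 1 library was left out, so no direction is read from those medians.

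The direction of change differed between chromosomes. Genes of chromosome 6 had a median log2 fold change of -0.32 over 477 tested genes; 212 of them, or 44.4%, were called lower and 20 higher. Chromosomes 18 and 12 shifted the other way, at medians of 0.32 and 0.29, with 134 of 287 genes (46.7%) and 136 of 368 (37.0%) called higher and 12 and 15 called lower. Chromosome 8 had a median of 0.21, chromosome 2 of 0.19 and chromosome 16 of 0.13, and chromosomes 4, 1 and 19 had -0.15, -0.12 and -0.12. The other 11 chromosomes lay between -0.073 and 0.063. Chromosome medians taken separately for each of the 4 pairs of a KO3 and a WT library differed little, from -0.32 to -0.29 for chromosome 6 and from 0.30 to 0.35 for chromosome 18. Some chromosomes were grouped after these medians were seen, leaving out chromosomes 16, 1 and 19. The shares of calls in these groups partly follow from that choice and are a description. Chromosomes 2, 8, 12 and 18 held 19.7% of tested genes, 42.2% of the higher calls and 6.24% of the lower calls. Chromosomes 4 and 6 held 10.5% of tested genes, 5.36% of the higher calls and 23.2% of the lower calls.

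The shift covered chromosome 6 along its length, with medians from -0.40 to -0.21 in all 8 windows of 20 Mb with at least 20 genes. On chromosome 4 it did not: genes in the first 100 Mb had a median of -0.42 (240 genes, 52.1% lower), and those beyond it of -0.0015 (379 genes, 11.1% lower). On chromosome 2 the first 20 Mb had a median of 0.43 (46 genes, 52.2% higher and none lower), the stretch from 20 to 60 Mb of -0.055, and the rest of 0.21. These bounds were set after the windows were seen. Other chromosomes also differed along their length. Chromosome 16 had a median of 0.017 in its first 20 Mb and of 0.32 from 80 to 100 Mb (61 genes, 45.9% higher). Chromosome 15 had -0.29 from 100 to 120 Mb (58 genes, 31.0% lower), against 0.014 for the whole chromosome. RNA from the same lysates gave nearly the same chromosome medians, -0.32 for chromosome 6, 0.33 for chromosome 12, 0.32 for chromosome 18 and -0.44 for the first 100 Mb of chromosome 4. KO1 and KO2, compared with the same WT libraries, had chromosomes away from 0 as well, among them chromosome 7 at -0.43, chromosome 9 at -0.35 and chromosome 16 at -0.33 in KO1, and chromosome 1 at 0.28, chromosome 8 at 0.27 and chromosome 10 at -0.26 in KO2. Chromosome 8 was thus shifted the same way in KO2 as in KO3. With no WT library in the comparison, KO3 against the mean of KO1 and KO2 had medians of -0.40 for chromosome 6, 0.48 for chromosome 12 and 0.44 for chromosome 18. The cause of the chromosome shifts was not tested.

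**Figure D4:**
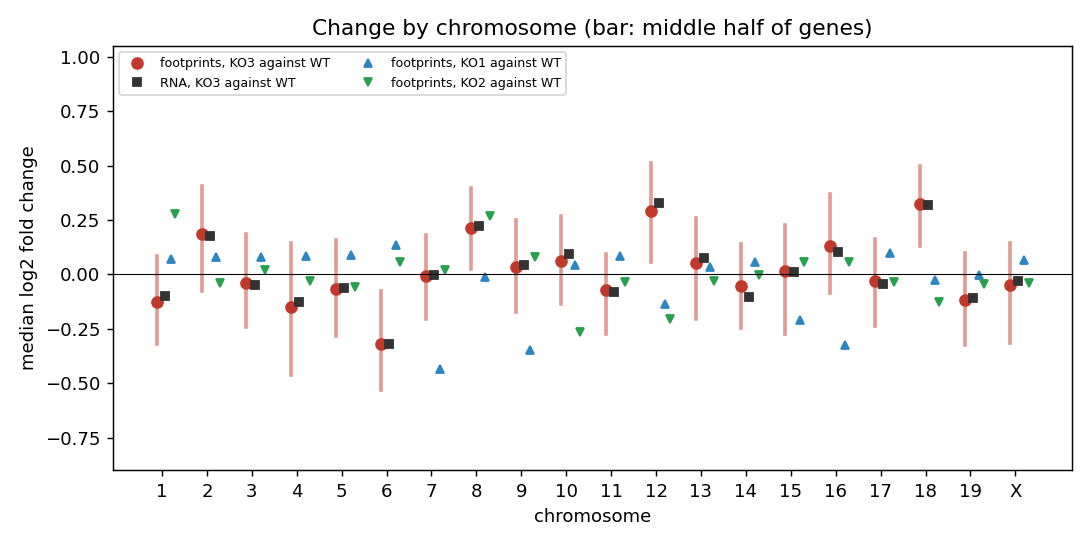
Median log2 fold change by chromosome: footprints of KO3 against WT (red circles, with a bar over the middle 50% of genes), RNA of KO3 against WT (black squares) and footprints of KO1 and KO2 against the same WT libraries (blue and green triangles). In KO3, chromosome 6 lies at -0.32 in footprints and RNA alike and chromosomes 12 and 18 at 0.29 and 0.32 in footprints.

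With each chromosome's median removed, an alternative added after the shift was seen, 2530 genes were called, or 24.3%, and 2153 of the 3183 original calls kept their call and direction. Large subunit protein calls went from 8 higher and 5 lower to 4 and 1, and small subunit calls from 6 and 2 to 2 and 1; Rps6 lies on chromosome 4, Rpl32 on 6 and Rps14 on 18. Synthetase calls went from 9 to 6, with Lars and Nars on chromosome 18 and Wars on 12. Ribosome biogenesis calls went from 22 lower to 15, and lipid synthesis calls from 13 lower to 8. ATF4 target and serine synthesis calls went from 12 to 15 higher and their median from 0.14 to 0.26. Growth factor and MAPK calls turned from 8 higher and 5 lower to 5 higher and 8 lower. Counts for histones (27 higher), extracellular matrix (18 higher and 8 lower), plasma proteins (7 and 10) and the lysosome (13 lower) were the same as those above. Removing the median of a whole chromosome leaves a shift of only a stretch in place, as on chromosome 4, and the stretch of chromosome 13 from 20 to 60 Mb, which holds the Hist1 genes, had a median of 0.18 (207 genes, 32.9% higher) against 0.05 for the chromosome. Eef1d stood at -0.67 and kept its call, Eef1g kept its call at a smaller change, and Eef1b2 and Eef2 lost theirs, as given above. Rrbp1 was called lower in this setting alone (-0.18, adjusted p = 0.036).

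Most called genes changed in RNA as well. RNA of KO3 and WT, tested in the same way, gave 2660 genes higher and 2573 lower of 11434, or 45.8% called. Of 3131 genes called in footprints and tested in RNA, 2652 (84.7%) were also called in RNA in the same direction, 5 in the opposite direction, and 474 were not called. Krt7 changed by 2.64 in RNA, Klf2 by 2.40, Alb by 1.25, Sprr1a by -1.74 and Mmp13 by -2.58, all close to their footprint values. The 5 genes with opposite signs, named because they are so few and not by the rule, were Eif2a (-0.24 in footprints, 0.28 in RNA), an initiation factor, Anapc5 (-0.39, 0.29), a subunit of the anaphase-promoting complex, Plekhm2 (0.74, -0.38), Polr1d (0.24, -0.21), a subunit of RNA polymerases I and III, and Rps27l (0.26, -0.19), a ribosomal protein paralog whose reads may be shared with its near copy. The RNA log2 fold change was -0.53 for Eef1d, -0.09 for Eef1g and -0.07 for Eef1b2, and the difference between RNA and footprints was not tested here.

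Many genes also differed between KO3 and the other exon 5 clones. KO3 against the mean of KO1 and KO2, a comparison without WT libraries, called 2513 genes higher and 2332 lower of 10763 (45%). This comparison and that with WT share the KO3 libraries, so the values are given side by side. Alb was higher in KO3 by 2.11 ± 0.06 (adjusted p = 3.3e-31), and against WT it changed by -1.27 in KO1 and -0.76 in KO2. Sprr1a differed by -2.20 ± 0.07, with 0.81 and 0.03 in the other clones against WT. Krt7 was higher by 3.07 ± 0.09, with -2.46 in KO1 and 1.41 in KO2. Cdkn2a changed by 0.52 and 0.40 in KO1 and KO2 against -3.53 in KO3 and Pnma5 by -0.23 and 0.04 against -4.47, and the KO3 difference passed in both. Enpp2 rose in KO1 (1.97) and fell in KO2 (-1.23) and KO3 (-4.28). Rhox5 was low in every clone, at 1.43 and 0.88 CPM in KO1 and 0.25 and 1.67 in KO2. Tff2 was below WT in each clone as well (-1.72, -3.71 and -4.70). Eef1d changed by -0.32 in KO1, 0.07 in KO2 and -0.66 in KO3 against the shared WT libraries, and the KO3 difference of -0.52 ± 0.07 passed (adjusted p = 9.5e-09). Eef1g, at 0.01 and 0.01 in the other clones, differed by -0.29 ± 0.06 (adjusted p = 5.0e-05).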

How the data were processed

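Ribo-seq and RNA-seq of 4 lines (WT and 3 KO clones, 2 libraries each) were used as deposited, as whole-number counts per transcript. Per the methods, the authors trimmed reads with fastp 0.21.0, aligned them with STAR 2.7.0a to mm10, and counted footprints of 21 to 33 nt by their A site (offset 15 nt, 16 nt for 23 and 33 nt), leaving out 5 codons at each end of the coding sequence; how reads shared by transcripts were counted is not given in the sources used here. Length and multi-mapping can thus alter the level of a gene, less so its ratio between lines. Counts show each gene's share of a library, not its absolute amount.

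One transcript per gene, the one with the largest sum over all 16 libraries, entered edgeR 4.0.16 (R 4.3.3) with TMM scaling, filterByExpr and the robust quasi-likelihood test, and p-values were adjusted by Benjamini-Hochberg over all 10398 genes at 0.05. DESeq2 1.42.0 and other settings served as alternatives. RNA, and KO3 against the mean of KO1 and KO2, were tested likewise. The code was tested on simulated data. Positions came from GENCODE vM21 (GRCm38), which placed 10394 of the tested genes. Replicates of a line differed by more than sampling noise (chi-square per degree of freedom 1.51 for WT and 1.68 for KO3) and were kept apart.

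The comparison, the gene lists and the rule for named genes were chosen with earlier results of these data known. Named were 8 genes of the EEF1B pathway, the 12 largest rises and falls among called genes with non-overlapping libraries and a mean of at least 50 counts, the 5 of each direction that moved most CPM, and in each list the 3 largest rises and falls and the member with the most footprints per codon. Some genes that the rule names are not reported here. Predicted genes, Rik genes and pseudogenes were counted but not named among the largest changes. Translation efficiency was not analysed here.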

Additional observations from a re-analysis of the deposited data

Results flagged for a closer look

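Of the 42 genes named for the EEF1B complex, for the size of their change or for the footprints they moved, 40 differed between KO3 and the mean of KO1 and KO2 in edgeR's test of that difference (adjusted p under 0.05), and 37 of these are given here with their log2 differences. Eef1a1 and Rhox5 did not pass. Of all 10763 genes tested for that difference, 45% passed; 34 of the 42 had been picked for their KO3 values against WT, and the test uses the same KO3 libraries, so their count is a description. KO3 was lower for Plac8 (-4.68), Enpp2 (-4.64), Pnma5 (-4.37), Cdkn2a (-3.99), Gfpt2 (-3.76), Clca3b (-3.42), Aebp1 (-3.18), Sprr1a (-2.20) and Tff2 (-1.98). Smaller differences in the same direction were seen for Ctnnb1 (-0.64), Eef1d (-0.52), Hspd1 (-0.42), Mmp13 (-0.37), Vars (-0.33), Eef1b2 (-0.32), Eef1g (-0.29) and Ktn1 (-0.23). KO3 was higher for Eef2 (0.21), Rrbp1 (0.21), Hist1h3d (0.29), Hist1h3h (0.30), Hist1h3i (0.32), Hist2h3c1 (0.40) and Ctsl (0.42). Ctsl, although lower in KO3 than in WT, was lower still in KO1 (-1.99 against WT), which sets the mean of the other clones, and stood at -0.19 in KO2. KO3 also lay between the other clones for Mmp13 (-4.55 in KO1, 0.04 in KO2 and -2.64 in KO3 against WT), was close to KO1 for Eef2 (0.22, -0.26 and 0.18), and was close to KO2 for Rrbp1 (-0.46, 0.07 and 0.01) and Hist2h3c1 (-0.21, 0.30 and 0.44), so in these genes 1 clone sets the mean. KO1 and KO2 also stood apart for Add3 (0.49 and -2.96 against WT, and 2.02 in KO3), Krt7 (-2.46, 1.41 and 2.53), Fam110c (-1.30, -0.07 and 1.88), Atoh8 (1.35, 0.05 and 2.18), Enpp2 (1.97, -1.23 and -4.28), Clca3b (0.42, -2.28 and -4.36), Tff2 (-1.72, -3.71 and -4.70), Aebp1 (-1.53, 0.10 and -3.90) and Gfpt2 (0.44, -0.63 and -3.86); KO2 sets most of the difference for Add3 and KO1 most of that for Krt7. The larger positive differences were those of Fam89a (1.21), Atoh8 (1.48), Cubn (1.97), Rhob (1.98), S100a4 (2.07), Alb (2.11), Antxr1 (2.49), Fam110c (2.57), Ephb6 (2.87), Krt7 (3.07), Add3 (3.27) and Klf2 (3.86). Tnfrsf11b had 1244 footprints over both KO3 libraries and 3 over the 4 libraries of the other clones, a level 723 times as high (95% counting interval 247 to 3513, exact binomial, counting error only).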

How the results depend on the processing

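The number of calls moved most with the test. DESeq2's Wald test called 488 genes higher and 603 lower, all but 12 of them among the 3183 edgeR calls. The edgeR test against a fold change of 1.2 called 616 and 805, and an adjusted p under 0.01 left 996 higher and 1139 lower. The cause was not tested beyond the tests' own construction. Calls stayed within 1.5 times of 1548 and 1635 with DESeq2's size factors, no count filter, a minimum of 10 counts per library, all 8 Ribo-seq libraries in 1 fit, libraries thinned to the smallest total, another choice of transcript, and with each chromosome's median removed (1164 and 1366, added after the data were seen). Leaving out 1 library gave 1134 to 1234 higher and 1148 to 1367 lower calls. A fit with the replicate number as a block gave 1709 and 1794; the labels do not say that a number marks a shared culture or day, and the differences between replicates correlated at 0.085 between the lines, so the block is not read as a pairing. Among the 42 named genes, directions changed only for Vars (-0.1747 without KO3 replicate 1 and 0.0032 without KO3 replicate 2) and Rrbp1 (-0.0873 and 0.0862 without these replicates, and -0.1824 with chromosome medians removed, adjusted p = 0.036, its only call); the cause was not tested. Eef1b2, Eef2, Ktn1 and Hist1h3d lost their call under at least 1 alternative. The sign of the list medians over 0.1 in size held except for the fibroblast, macrophage and myoblast markers, with 2 to 4 tested members. The order of the medians did not hold. Histones (0.29) lay below the extracellular matrix under some alternatives (0.23 against 0.27 without WT replicate 2). With libraries thinned to the smallest total, gluconeogenesis and urea cycle genes (-0.37) lay below apolipoproteins (-0.33) and plasma proteins (-0.29). With other sets of low-count members, medians went from -0.47 to -0.26 for plasma proteins (10 counts per library), from -0.44 to -0.82 for apolipoproteins (no filter) and from 0.26 to 0.17 for the extracellular matrix (no filter; 0.08 with DESeq2). Precision is limited by 2 libraries per line and, for genes under about 33 footprints per library, by counting error.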
